A study of Mus musculus with 2 samples.

Results

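The cytosolic ribosomal protein genes were examined as targets of Tia1 in activated mouse B cells. They were taken by name from the protein-coding genes of GENCODE on GRCm38, as Rpsa, Rplp0 to Rplp2 and the numbered Rps and Rpl genes. This gave 80 genes of 21951, with 31 encoding proteins of the 40S subunit and 49 encoding proteins of the 60S subunit, and the 21871 other protein-coding genes served for comparison. The data were individual-nucleotide resolution crosslinking and immunoprecipitation (iCLIP), in which UV light links a protein to the RNA it touches and each recovered cDNA ends next to the crosslinked nucleotide. The source was the cytoplasm of splenic B cells of C57BL/6 mice cultured for 48 h with 10 µg/ml LPS, a bacterial lipid that drives B cells to divide, and there were 2 biological replicates of this 1 group. No untreated, isotype or input sample was analysed here, so every value is a description of 2 samples and no test over samples could be made. The sample titles name Tia1, but the labels name an antibody to its relative Tial1 and the methods an antibody to Tia1. Which of these was used could not be settled, and the name of the titles, Tia1, is kept.

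Each ribosome joins a small subunit, which reads the mRNA, to a large subunit, which forms the peptide bonds, and most ribosomal proteins are made from 1 short, abundant and stable mRNA each. These mRNAs begin with an oligopyrimidine tract (the 5′TOP motif), an uninterrupted stretch of C and U through which their translation follows growth and nutrient signals. Tia1 and Tial1 bind U-rich RNA, and in human cells under amino acid shortage both have been tied to 5′TOP mRNAs held out of translation in stress granules. Ribosomal protein genes also have many processed pseudogenes, intronless copies that resemble the mRNA, and several carry small nucleolar RNAs (snoRNAs) in their introns.

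The values are counts of unique cDNAs at low-FDR sites, crosslinked nucleotides that the authors kept at a low false discovery rate (FDR). Replicate 1 held 639108 such cDNAs and replicate 2 held 165081. Sites were called on each replicate and on both together, so a pooled count can exceed the sum of the replicates. Of the B cell markers, 7 of 8 were covered by exonic cDNAs in both replicates, with sums of 5481 and 1541 cDNAs in replicates 1 and 2. Markers of other blood cells reached 4 and 0 (T cells), 29 and 6 (myeloid), 25 and 3 (erythroid) and 0 and 0 (NK cells). Cd3d, Cd4, Cd8a, Csf1r, Alas2 and Ncr1 were among those at 0 in both.

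Of the 80 ribosomal protein genes, 59 had at least 1 pooled cDNA in an exon or intron (39.1% of all protein-coding genes had one), and together they held 2677 pooled cDNAs at 1101 sites. In the coding sequence (CDS) or UTRs, 29 of 80 (36.2%) had a cDNA in each replicate, against 4887 of 21871 other genes (22.3%), where 22.4% of all protein-coding genes passed this rule. The 3′UTR was covered in both replicates in 19 of 80, close to the background of 21.3%. The CDS was covered in both in 12 of 80 (background 3.42%), the 5′UTR in 5 of 80 (background 0.756%) and introns in 2 of 80 (background 2.6%). The abundance of the mRNAs was not measured in this series, so counts of different genes cannot be read as affinities.

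The cDNAs were unevenly spread over the genes. Rps15a alone held 16.8% of the pooled cDNAs, and the 4 genes Rps15a, Rps3, Rpl4 and Rplp0 together held 38.0%. The median over all 80 genes was 14 pooled cDNAs. Within a gene, sites were clustered. When sites within 15 nt were joined, 31 clusters of at least 20 pooled cDNAs held 63.2% of all cDNAs on these genes, and 24 of the 31 had cDNAs in both replicates. By the region with most of their cDNAs, 15 of the 31 lay in the CDS and 13 in the 3′UTR.

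**Figure D1:**
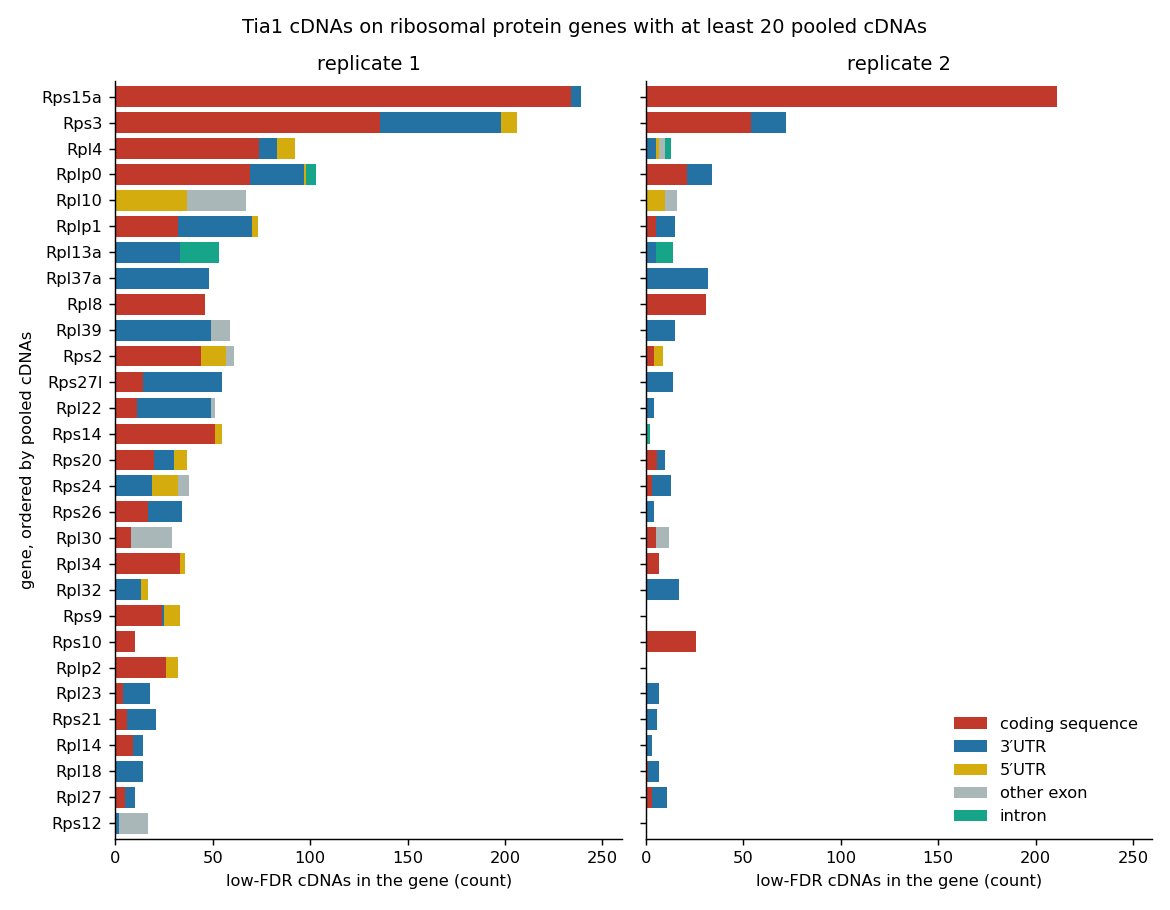
Low-FDR cDNAs (count, horizontal axis, same scale in both panels) on ribosomal protein genes with at least 20 pooled cDNAs, apart from genes not reported here, in replicate 1 (left) and replicate 2 (right), coloured by transcript region. Rps15a leads in both, with 239 and 211 cDNAs, and Rps3 follows with 206 and 72.

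The sequences below are those of the genome at the highest sites. Several have near copies elsewhere in GRCm38, and which copy their cDNAs came from was not tested. All are given along the mRNA in DNA letters from GRCm38. The first is the end of the Rps15a CDS with its stop codon, and its capitals mark the stretch of 10 nt in which each base had at least 10 pooled cDNAs. The others are 25 nt around the highest site of the genes with most CDS cDNAs, of Rpl8 and of Rps10, then of the genes with most 3′UTR cDNAs, with the crosslinked base in capitals.
Rps15a, chr7:118109100-118109123, minus strand: aaaatcctgggaTTCTTTTTTTaa
Rps3, CDS in some transcripts, chr7:99478911-99478935, minus strand: tctggaggcattTaataaaataaag
Rpl4, CDS, chr9:64178218-64178242, plus strand: tgcagcacaaacTtcgtgtgaaaaa
Rplp0, CDS, chr5:115560733-115560757, plus strand: cttcatagcaacTtttggatgatta
Rpl8, CDS, chr15:76905882-76905906, plus strand: gacaagcctatcTtaaaggctggcc
Rps10, CDS in some transcripts, chr17:27630433-27630457, minus strand: gtttatgttgtaTtgaataaacttt
Rps3, 3′UTR, chr7:99478069-99478093, minus strand: cacctacgtagcTttacgtggggta
Rpl37a, 3′UTR, chr1:72713601-72713625, plus strand: aaacgggttattTacgtaacttttt
Rpl39, 3′UTR, chrX:37082613-37082637, minus strand: ggatttcaacatTtaaacctggaga
Rps27l, 3′UTR, chr9:66949375-66949399, plus strand: gaatttgtgtttTtcacagaaagcc

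Rps15a, a protein of the 40S subunit (ENSMUSG00000008683.16, chromosome 7, 118104372 to 118116188), had 239 cDNAs in replicate 1 and 211 in replicate 2. Replicate 2 thus gave nearly as many as replicate 1, although it was the shallower library. Nearly all lay in 1 cluster of 39 nt (118109099 to 118109137), with 226 and 211 cDNAs. The capital stretch above held 193 and 198 of them, 86.7% of the pooled cDNAs of the gene. It is a run of U broken by 1 C that ends on the first base of the stop codon. The highest site over both replicates, at 118109107, had 19 cDNAs in replicate 1 and 39 in replicate 2, and lay 7 nt before the last base of the stop codon. Its annotated 3′UTR of 4728 nt, long for this family, held 5 cDNAs in replicate 1 and 0 in replicate 2. The 35 nt after that site occurred once in GRCm38 as an exact match, but at 8 places when up to 2 mismatches were allowed. Only 4 of the 451 pooled exonic cDNAs of Rps15a lay where the following 35 nt was unique under that looser rule, so the share of these cDNAs that came from the gene itself was not tested.

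**Figure D2:**
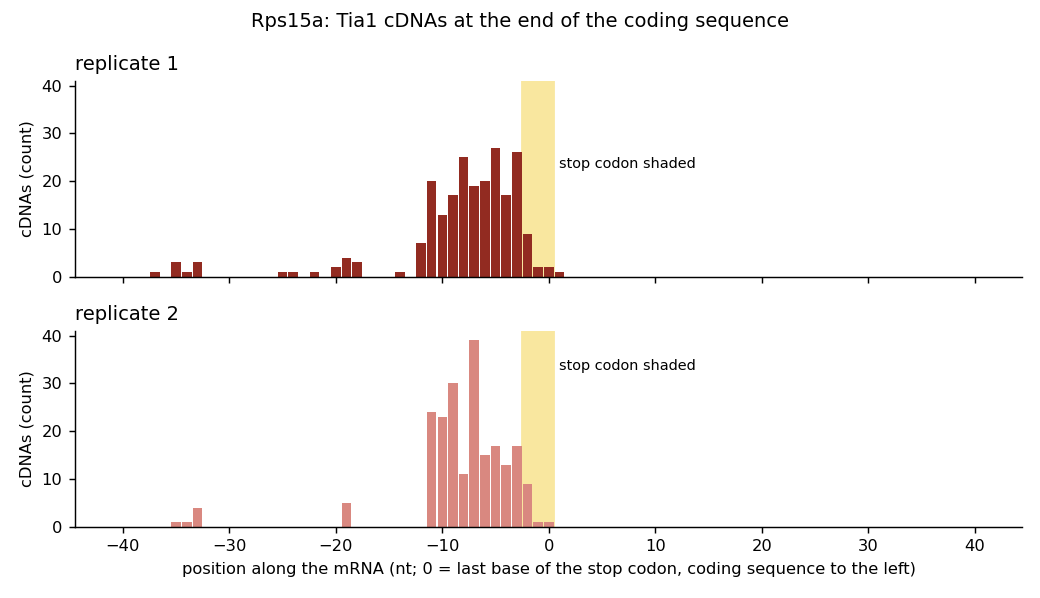
Low-FDR cDNAs (count, vertical axis) at each nucleotide around the stop codon of Rps15a (horizontal axis, nt, 0 at the last base of the stop codon) in replicate 1 (top) and replicate 2 (bottom). The cDNAs pile up in the last nucleotides of the coding sequence in both, and the highest position over both has 19 and 39 cDNAs.

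Rps3, which sits where the mRNA enters the 40S subunit, had 206 cDNAs in replicate 1 and 72 in replicate 2. They fell into 3 main clusters. One of 58 nt within the CDS (chromosome 7, 99482606 to 99482663) had 74 and 18 cDNAs. The second (99478905 to 99478950) had 50 and 36 cDNAs, 82 of its 87 pooled cDNAs counted as CDS because 1 or more annotated coding transcripts read through it. In the transcript with the longest CDS it is 3′UTR, and 73 of the 87 pooled cDNAs had an AAUAAA, the usual polyadenylation signal, in the 31 nt around the site. The third lay in the 3′UTR (99478590 to 99478617) with 24 and 14 cDNAs. Few near copies touched this gene, with 273 of its 285 pooled exonic cDNAs at positions unique with up to 2 mismatches.

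Rps10 had the same annotation problem. This 40S gene, singled out after its values were seen, had 10 cDNAs in replicate 1 and 26 in replicate 2, all within 13 nt (chromosome 17, 27630444 to 27630456). The cluster is CDS in some transcripts, outside the CDS and UTRs of the transcript with the longest CDS, and in an intron of an annotated readthrough gene. An AAUAAA was near 28 of its 36 pooled cDNAs. Rps3, Rps10 and Rps27l together had 120 of the 1426 pooled CDS cDNAs (82, 36 and 2) in CDS of shorter transcripts alone.

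The CDS cDNAs of the following genes were also CDS in the transcript with the longest CDS, but most of these genes have near copies. Rpl8, a 60S protein near the peptidyl transferase centre, had 46 CDS cDNAs in replicate 1 and 31 in replicate 2, and no cDNA elsewhere in either. A single base, at chromosome 15, 76905894, gave 21 and 19 of them, and all 80 pooled exonic cDNAs of Rpl8 were at positions without near copies. Rplp0, the base of the acidic stalk of the 60S subunit, had 69 and 21 CDS cDNAs. Of its cluster of 18 nt near the start of the CDS (chromosome 5, 115560740 to 115560757), with 56 and 21 cDNAs, no cDNA was at a position without near copies. Rps2, at the mRNA entry side of the 40S subunit, had 44 and 4, and Rpl4, a large 60S protein, had 74 and 0. Rps14, a 40S protein, also had its cDNAs mainly in the CDS, with 55 cDNAs in all regions in replicate 1 and 2 in replicate 2. Positions unique with up to 2 mismatches held 15 of the 127 pooled exonic cDNAs of Rpl4, 18 of 66 of Rps2, with 0 of 48 in its CDS cluster, and 7 of 61 of Rps14. Replicate 2 thus gave few or no CDS cDNAs on Rpl4, Rps2 and Rps14, while it gave many on Rps15a, Rpl8 and Rplp0.

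In 3′UTRs, Rps3 had 62 cDNAs in replicate 1 and 18 in replicate 2. Rpl37a, a small zinc-binding 60S protein, had all its cDNAs in the 3′UTR, 48 and 32, within 75 nt (chromosome 1, 72713610 to 72713684). Rpl39, a small protein of the 60S exit tunnel, had 49 and 15 3′UTR cDNAs in a cluster of 35 nt (chromosome X, 37082611 to 37082645), and 0 of its 64 pooled exonic cDNAs were at positions without near copies. Rps27l, a paralogue of Rps27 that responds to p53 in human cells, had 41 and 14. On Rplp1, which with Rplp2 forms the stalk on Rplp0, 67 and 15 cDNAs lay in a cluster of 32 nt across the stop codon (chromosome 9, 61913311 to 61913342), with 34 pooled cDNAs in the CDS and 48 in the 3′UTR. Rpl22, a 60S protein with an annotated 3′UTR of 1647 nt, had 38 and 4. Rpl13a, a 60S protein with roles outside the ribosome, had 33 and 5 in the 3′UTR. Their clusters were seen in both replicates for Rpl37a, Rpl39, Rps27l, Rplp1 and Rpl13a, and the highest Rpl22 cluster had 21 and 0 cDNAs. Positions unique with up to 2 mismatches held 37 of 82 pooled exonic cDNAs of Rpl37a and 18 of 73 of Rps27l. They held 23 of 88 of Rplp1, 54 of 62 of Rpl22 and 4 of 49 of Rpl13a.

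The remaining genes with more than 40 pooled cDNAs split over the same regions. In the CDS, Rpl34, a 60S protein, had 33 cDNAs in replicate 1 and 7 in replicate 2, Rps20, a 40S protein, had 20 and 6, and Rps26, a 40S protein at the mRNA exit side, had 17 and 0. In the 3′UTR, Rps24, a 40S protein, had 19 and 10, Rps26 had 17 and 4, Rpl32, a 60S protein, had 13 and 17, and Rps20 had 10 and 4. Rpl30, a 60S protein, had 8 and 5 in the CDS and 21 and 7 in exons outside its coding transcripts' CDS and UTRs. Rpl32 and Rps24 were covered in the 3′UTR in both replicates, whereas the CDS cDNAs of Rps26 came from replicate 1 alone. Of pooled exonic cDNAs, those without near copies were 0 of 47 on Rps26, 0 of 14 on Rpl30 and 3 of 43 on Rpl34. For Rps20, Rps24 and Rpl32 they were 28 of 57, 18 of 48 and 30 of 41. Over the family, 42 genes had at least 10 pooled cDNAs and 17 had 1 to 9. By replicate, 33 genes had cDNAs in both, 21 in replicate 1 alone, 1 in replicate 2 alone, and 4 in the pooled list alone. Neither split was made over all protein-coding genes, and replicate 1 was the deeper library, so they cannot be read as traits of the family.

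Summed over the family, the CDS held 52.9% of the cDNAs on ribosomal protein genes in replicate 1, with an exact 95% interval of 50.6 to 55.2, and 60.7% (56.7 to 64.5) in replicate 2. On other protein-coding genes it held 6.80% (6.74 to 6.87) and 3.28% (3.19 to 3.37). The mean was 56.8% ± 5.48 on ribosomal protein genes and 5.04% ± 2.49 on other genes (SD, n = 2). The 3′UTR held 28.0% (25.9 to 30.1) and 29.4% (25.9 to 33.1) on ribosomal protein genes, against 84.9% (84.8 to 85.0) and 89.1% (88.9 to 89.3) on other genes. For the 5′UTR the shares were 8.21% (6.98 to 9.57) and 4.42% (2.96 to 6.33), against 1.59% (1.56 to 1.62) and 1.69% (1.62 to 1.75). Introns held 3.61% and 3.00% on ribosomal protein genes and 4.84% and 4.30% on other genes. The intervals are Clopper-Pearson and cover counting error only, since cDNAs of 1 gene are not independent of each other.

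Near copies and Rps15a both touched these shares. The ribosomal protein genes were limited to positions where the following 35 nt was unique with up to 2 mismatches. The CDS then held 33.1% (29.9 to 36.4) and 41.7% (35.8 to 47.7), and the 3′UTR 35.1% (31.9 to 38.4) and 41.3% (35.4 to 47.4). These CDS and 3′UTR shares were close, with overlapping intervals, in both replicates. This filter was not computed for other genes. Without Rps15a, the CDS share was 46.0% in replicate 1 and 41% in replicate 2, and the 3′UTR share 31.9% and 44.1%. Among the 33 ribosomal protein genes with at least 10 exonic cDNAs in replicate 1, the median CDS share was 50.0%, against 0% over 5012 other genes. In replicate 2 the medians were 30.3% over 14 ribosomal protein genes and 0% over 2625 other genes. More than 50% of the exonic cDNAs lay in the CDS in 15 of the 33 ribosomal protein genes and 218 of the 5012 other genes in replicate 1, and in 6 of the 14 and 42 of the 2625 in replicate 2.

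**Figure D3:**
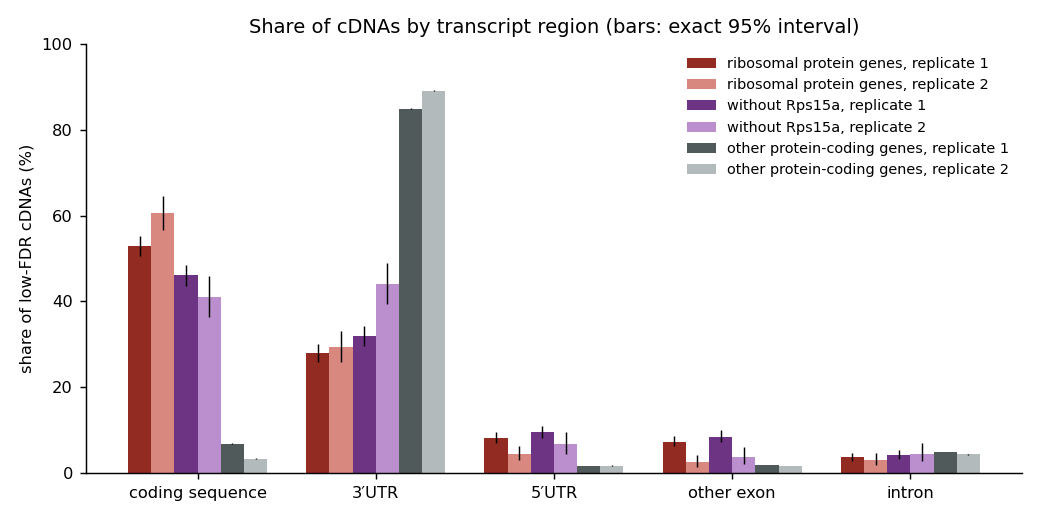
Percentage of cDNAs that fell in each transcript region (vertical axis, low-FDR sites), for ribosomal protein genes, for the same genes without Rps15a, and for other protein-coding genes, in replicates 1 and 2, with exact 95% intervals. The CDS bars stand at 52.9% and 60.7% for ribosomal protein genes, 46.0% and 41% without Rps15a, and 6.80% and 3.28% for other genes.

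The annotated length of the regions was compared next. The CDS made up 42.5% of the annotated CDS and UTR length of ribosomal protein genes and 47.7% of that of other genes. For the 5′UTR this was 25.4% and 9.31%, so the 5′UTR shares above compare regions of unlike length. Per kb, the CDS of ribosomal protein genes had 22.4 cDNAs in replicate 1 and 9.02 in replicate 2, against 1.11 and 0.135 on other genes. Per kb of 3′UTR the values were 15.6 and 5.77 on ribosomal protein genes and 15.3 and 4.08 on other genes. Per kb of 5′UTR they were 5.82 and 1.10, against 1.32 and 0.357. Leaving out Rps15a gave 17.1 and 4.10 per kb of CDS and 18.1 and 6.76 per kb of 3′UTR. With Rps15a, the density of cDNAs in the 3′UTR was near that of other genes in replicate 1 and higher in replicate 2. Without Rps15a it was higher than on other genes in both replicates. The density in the CDS was many times that of other genes in both replicates, with or without Rps15a. These densities include the length of genes without cDNAs. Exonic cDNAs were found on 56.25% and 38.75% of ribosomal protein genes, against 32.8% and 23.1% of other genes. A higher mRNA level and more crosslinks per mRNA cannot be told apart here.

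The coding sequence is also where these genes resemble their copies most. Only 40.02% of the CDS positions of ribosomal protein genes were followed by 35 nt found once in GRCm38, against 92.2% in 3′UTRs and 94.3% in 5′UTRs. Of the CDS cDNAs, 94.3% in replicate 1 and 97.4% in replicate 2 were at such unique positions, far above the share of positions. Over CDS and UTRs, 94.8% and 96.5% of the cDNAs on ribosomal protein genes were at unique positions, against 98.8% and 98.5% on other genes. Per kb of unique sequence, the CDS of ribosomal protein genes had 52.8 and 22.0 cDNAs and the 3′UTR 16.1 and 5.89. Without Rps15a these were 39.8 and 9.77 in the CDS and 18.8 and 6.97 in the 3′UTR. Allowing up to 2 mismatches, 29.7% of the CDS positions stayed unique, and 29.2% and 29.9% of the CDS cDNAs lay there. In 3′UTRs, 84.9% of the positions stayed unique but held only 58.7% and 61.3% of the cDNAs. In 5′UTRs, 89.8% stayed unique but held only 52.0% and 53.6%. Near copies thus touched UTR counts as well. Per kb of sequence that was unique with up to 2 mismatches, the CDS had 22.0 and 9.08 cDNAs and the 3′UTR 10.8 and 4.16. No source used here says how reads with several matches were treated, and the part of near copies in these counts was not tested.

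The 21 genes with no pooled low-FDR cDNA included Rpl3l, Rpl6, Rpl9, Rpl10a, Rpl10l, Rpl15, Rpl24, Rpl31, Rpl35, Rpl36, Rpl36a, Rpl39l, Rpl41, Rps6, Rps7, Rps13, Rps19, Rps27a, Rps28 and Rps29. Rpl3l, Rpl10l and Rpl39l are paralogues known for expression in muscle or testis rather than in most tissues. The others named are general ribosomal proteins, among them Rps6, the target of S6 kinases, with 20.2% of its exonic positions unique, the lowest of the 80. For Rpl3l, Rpl10l and Rpl39l, 100%, 59.9% and 98.4% of exonic positions were unique. Over the 21 genes the median unique share was 62.9%, and over the 59 with cDNAs it was 66.7%. With up to 2 mismatches the order was reversed, with medians of 57.9% and 56.1%. A count of 0 therefore says that no site was called there, and for genes with many copies not more than that.

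The 5′UTR was covered in 20 ribosomal protein genes in the pooled list (background 3.33%), and many of the sites lay in pyrimidine tracts. The sequences below show the longest run of C and U that held 5′UTR sites, in capitals, for the genes with most 5′UTR cDNAs, for those with 5′UTR cDNAs in both replicates, and for Rps3, Rps20 and Rpl32, added after their values were seen.
Rpl10, chrX:74270908-74270932, plus strand: tctcgtaaTTTTTCTTTgggatttt
Rps16, chr7:28350740-28350764, plus strand: cccgcgCTTCCCTTTTCCggtcgcg
Rps2, chr17:24720241-24720265, plus strand: TTTCCTTTTTTTCCTCTTCTTTTTg
Rps24, chr14:24490713-24490737, plus strand: cggTCCTCTTTTCCTCCTCTCCagc
Rpsa, chr9:120127777-120127801, plus strand: ggccgcccgTCCTTTCgcgctaccc
Rpl4, chr9:64173364-64173388, plus strand: acaagTCTTTCCTTTTCCTgtggga
Rps3, chr7:99483636-99483660, minus strand: gagccaCTTCCTTTCCTTTCagcgg
Rpl32, chr6:115808730-115808754, minus strand: gccgCCTCTTCCTTCTTCCTCggcg
Rps20, chr4:3835588-3835612, minus strand: cgtccggCCCCTCCTTTCTgagccc

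Rps16, a 40S protein, had all its cDNAs in the run shown, 11 in replicate 1 and 8 in replicate 2. The run of Rps2 held 11 and 5 of its 13 and 5 5′UTR cDNAs, and that of Rpl4 held 8 and 2 of 9 and 2. Rpsa, a 40S protein also known as the laminin receptor, had 9 and 3 in a run of 7 nt. On Rps24, Rps3, Rpl32 and Rps20 the runs held 13, 8, 4 and 7 cDNAs in replicate 1 and 0 in replicate 2. Only Rpl10, Rps16, Rps2, Rpsa and Rpl4 had 5′UTR cDNAs in both replicates. Near copies, with up to 2 mismatches, touched some of these runs. Of the pooled 5′UTR cDNAs, 0 of 19 on Rps16, 0 of 12 on Rpsa and 0 of 11 on Rpl4 lacked near copies. On Rps24 and Rpl32 these were 0 of 14 and 0 of 7, whereas all those on Rpl10, Rps2, Rps3 and Rps20 lacked near copies.

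Several runs lay at a GENCODE transcript start, but fewer at a RefSeq start. The run began 6 nt before the nearest GENCODE start in Rpl4, 3 nt before it in Rps3 and in Rpl32, 2 nt before it in Rps24 and 10 nt before it in Rps2. From the first base of the run, the nearest RefSeq start was 7 nt downstream in Rpl32, 18 nt downstream in Rpl4 and 31 nt downstream in Rps24, and it was 55 nt upstream in Rps3 and 178 nt upstream in Rps2. No 5′UTR cDNA of Rps24, Rps3 or Rps2 was within 20 nt of a RefSeq start. In Rps16 and Rps20 the nearest GENCODE start was 94 and 60 nt upstream, and the nearest RefSeq start 57 and 50 nt upstream. Rpl10, which completes the 60S subunit late in its assembly, had 37 and 10 5′UTR cDNAs in a stretch of 64 nt, but all 48 pooled ones lay within an intron of another coding transcript. The same held for all 18 pooled 5′UTR cDNAs of Rps2, of which 11 were outside the 5′UTR of the transcript with the longest CDS. Rpl10 had none in the CDS or 3′UTR, and 30 and 6 cDNAs in other exons.

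Over all 5′UTR cDNAs of ribosomal protein genes, 66.2% in replicate 1, with an exact 95% interval of 58.0 to 73.8, and 67.9% (47.6 to 84.1) in replicate 2 were in a run of at least 8 C or U. On other genes the shares were 44.8% (43.8 to 45.8) and 56.0% (54.0 to 57.9). Such runs made up 7.89% of the 5′UTR positions of ribosomal protein genes and 4.91% of those of other genes. With all genes, the intervals of the gene groups were apart in replicate 1 and overlapped in replicate 2. Without Rpl10, a choice made after seeing the data, the shares on ribosomal protein genes were 69.4% (59.9 to 77.8) and 83.3% (58.6 to 96.4). These intervals were apart from those of other genes in both replicates. In replicate 2 this rested on 15 of 18 cDNAs, from Rps16 (8), Rps2 (5) and Rpl4 (2). The interval counts cDNAs of 1 gene as independent, so it does not settle a difference there. Within the first 20 nt of an annotated transcript lay 29.7% (22.5 to 37.8) and 10.7% (2.27 to 28.2), or 44 of 148 and 3 of 28 cDNAs, against 11.5% (10.9 to 12.2) and 14.6% (13.2 to 16.0) on other genes. These positions were 13.9% of the 5′UTR of ribosomal protein genes and 11.7% of that of other genes. The share at the annotated start was higher than on other genes in replicate 1, and the interval of replicate 2 held the value of other genes.

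**Figure D4:**
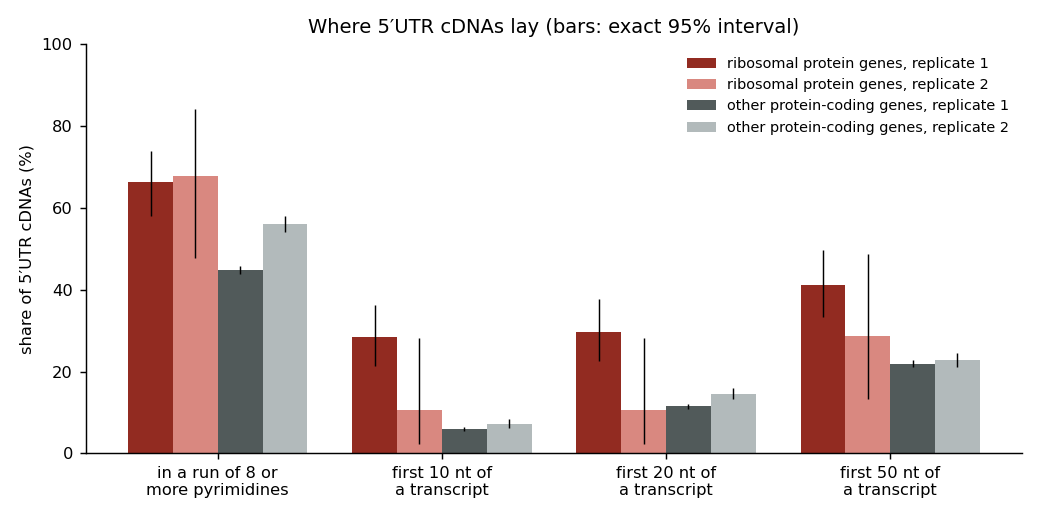
Share of 5′UTR cDNAs (percent, vertical axis) in a run of at least 8 pyrimidines and in the first 10, 20 and 50 nt of an annotated transcript, for ribosomal protein genes and other protein-coding genes in replicates 1 and 2, with exact 95% intervals. The share in pyrimidine runs is 66.2% and 67.9% for ribosomal protein genes and 44.8% and 56.0% for other genes.

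The bases around the sites were compared by region. In the 31 nt around 3′UTR sites, U made up 43.0% in replicate 1 and 44.5% in replicate 2, against 44.9% and 49.6% on other genes. Around CDS sites it made up 25.5% and 32.5%, against 34.9% and 40.7%, where the whole CDS had 19.9% U in ribosomal protein genes and 22.4% in other genes. The crosslinked base itself was U at 47.1% (exact 95% interval 42.0 to 52.3) and 71.8% (60.5 to 81.4) of the CDS sites of ribosomal protein genes, against 69.5% (68.9 to 70.0) and 84.3% (83.1 to 85.5) of those of other genes. In 3′UTRs it was U at 79.2% and 87.9% of sites, against 73.7% and 84.7%.

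The 3′UTRs of this family are short, with a median of 90 nt in the transcript with the longest CDS, against 729 nt for other genes. The last 50 nt of that transcript held 23.3% (19.8 to 27.1) and 25.7% (20.1 to 31.9) of the 3′UTR cDNAs of ribosomal protein genes, against 4.24% and 6.25% for other genes. An AAUAAA lay within the 31 nt around 16.3% and 20.7% of the 3′UTR sites of ribosomal protein genes, against 2.46% and 2.87% for other genes. The share of 3′UTR positions in the last 50 nt or near an AAUAAA was not set beside these values. Neither comparison therefore accounts for the shorter 3′UTRs of this family. The first 50 nt of the 3′UTR held 42.4% and 51.4%, against 4.75% and 5.35%, and made up 13.3% of the 3′UTR length of ribosomal protein genes and 3.73% of that of other genes. At the end of the CDS, the last 50 nt held 36.9% and 69.3% of the CDS cDNAs. Without Rps15a this was 16.0% and 10.8%, against 12.9% and 22.0% on other genes. These last 50 nt made up 9.59% of the CDS length of ribosomal protein genes and 3.06% of that of other genes.

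In introns, 53 of the 124 pooled cDNAs lay on annotated snoRNAs. The 14 on Rpl17 were all on the snoRNA Gm23301 (12 in replicate 1, 0 in replicate 2), and 18 of the 36 on Rpl13a were on Snord35a (12 and 0). A further 17 pooled cDNAs of Rpl7a (17 and 0), in an exon of a non-coding transcript, lay on a snoRNA of RefSeq. These were all the cDNAs that Rpl17 and Rpl7a had. Replicate 2 had no cDNA on these snoRNAs. The intron of Rpl13a is shared with the overlapping gene Gm45713.

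Between the subunits, 12 of 31 genes of the 40S subunit and 17 of 49 of the 60S subunit were covered in CDS or UTRs in both replicates (background 22.4%). The CDS held 65.1% and 80.3% of the cDNAs on 40S genes and 39.5% and 30.2% of those on 60S genes. Leaving out Rps15a, the 40S shares were 54.0% and 56.3%. The 3′UTR held 28.6% and 32.2% on the 40S genes without Rps15a, and 34.6% and 52.4% on the 60S genes.

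Replicate 2 supplied 26.0% of the cDNAs on ribosomal protein genes (exact 95% interval 24.3 to 27.8), against 20.2% over all protein-coding genes. Without Rps15a it supplied 21.2% (19.5 to 23.1). Within the CDS alone, its part was 28.7%, or 19.4% without Rps15a, against 10.9% on other genes. Of the 28 genes with at least 20 cDNAs in the replicates, the interval lay above 20.2% for 7 (Rps10, Rpl27, Rpl32, Rps15a, Rpl8, Rpl37a and Rps3) and below it for 5 (Rpl22, Rps14, Rplp2 and Rps9 among them). Rps10 had the highest share, 72.2% (54.8 to 85.8), followed by Rpl27 with 52.4% and Rpl32 with 50.0%. The lowest were Rplp2, where replicate 1 gave 32 cDNAs and replicate 2 gave 0, and Rps9, where they gave 33 and 0. The interval thus left out 20.2% in 12 of 28 cases. It counts cDNAs of 1 gene as independent, and the sites called also differ with depth. How often it leaves out 20.2% over all protein-coding genes was not computed, so the 12 cannot be read as a trait of this family. Shares over the family rest on which genes were called in each replicate.

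**Figure D5:**
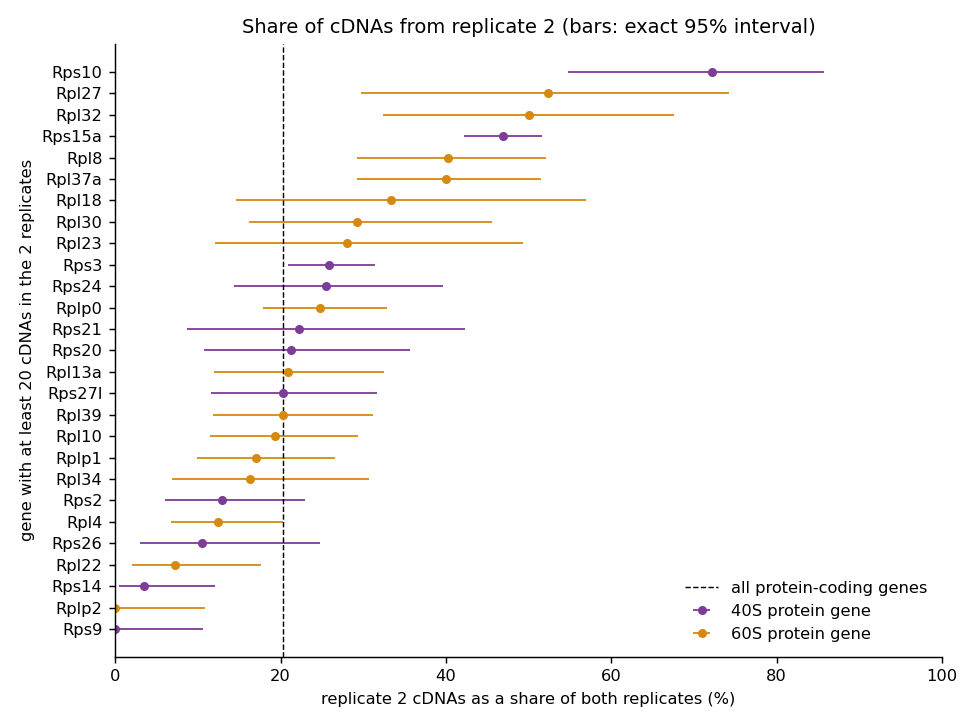
Share of cDNAs that came from replicate 2 (percent, horizontal axis) for ribosomal protein genes with at least 20 cDNAs in the replicates, apart from genes not reported here, with exact 95% intervals, coloured by subunit, and the share over all protein-coding genes as a dashed line at 20.2%. Rps10 is highest at 72.2%, and the intervals of Rplp2 and Rps9 start at 0%.

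Related gene lists gave a frame for these values, and they were chosen with earlier results of these data known. The rule was again cDNAs in CDS or UTRs in both replicates, which 22.4% of all protein-coding genes passed. Of the mitochondrial ribosomal protein genes, which serve the separate ribosome of that organelle and have no 5′TOP motif, 25 of 78 were covered in both replicates, near the 29 of 80 of the cytosolic family. Yet the 3′UTR held 31.4% and 31.1% of the CDS and UTR cDNAs of the cytosolic family and 90.1% and 92.6% of those of the mitochondrial one, and the CDS 59.4% and 64.2% against 8.13% and 5.90%. Their CDS had 1.34 and 0.303 cDNAs per kb, against 22.4 and 9.02 for the cytosolic family. Ribosome assembly factors were covered in 10 of 18 cases, with 85.4% and 96.7% of their cDNAs in the 3′UTR and none in the 5′UTR.

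Other 5′TOP genes of the translation machinery were covered in 12 of 15 cases. Their CDS share was 29.2% in replicate 1 and 9.0% in replicate 2, against 59.4% and 64.2% for the ribosomal protein genes. Their 5′UTR share was 21.4% and 34.6%, and most of it came from Pabpc1, the cytoplasmic poly(A)-binding protein, with 378 and 249 5′UTR cDNAs. Rack1, a scaffold on the 40S subunit, had 98 and 22 cDNAs in the CDS and 28 and 13 in the 5′UTR, and Eef1b2, an exchange factor of translation elongation, 41 and 11 and 26 and 4. Tpt1, also a 5′TOP gene, had none. Of 7 ribosomal protein genes that the naming rule leaves out, only Rpl7l1 (47 and 18 cDNAs) and Rps27rt (27 and 11) were covered in both, all in the 3′UTR, and Fau had 7 and 0 in the 5′UTR.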

How the data were processed

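Tia1 iCLIP sites of 2 replicates were analysed. The authors made the deposited values, unique cDNA counts per crosslinked nucleotide with a minus sign for the minus strand, with the iCount pipeline and Bowtie, whose version the sources used here do not give. Reads were mapped to mm9, PCR duplicates were collapsed by random barcode, and low-FDR sites were called against permuted positions. The authors lifted the pooled sites to GRCm38 (mm10), and replicate counts were joined to that list through its row-paired mm9 list, which held 98.9% and 99.1% of the cDNAs of replicates 1 and 2.

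Sites were assigned by strand to protein-coding genes of GENCODE M21, in the order CDS, 3′UTR, 5′UTR, other exon and intron over all coding transcripts. A site in several genes counted for each. Clusters join sites within 15 nt. Uniqueness was searched in both strands of GRCm38 and tested on simulated data. RefSeq supplied the snoRNAs and starts named as such. The scripts used scipy 1.17.1, pandas 2.3.3, numpy 2.4.6, numba 0.67.0, matplotlib 3.10.9 and Python 3.11.15.

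The genes, lists and tests were chosen with earlier results of these data known. Named were the 12 genes with most pooled cDNAs, the top 4 per region, those with 5′UTR cDNAs in both replicates, those with none, and the 8 highest sites. With 1 group of 2 samples no test over samples was run, and intervals cover counting error only. Alternatives were the region order, 1 transcript per gene, site minimums, unique positions, window sizes and leaving out each replicate. Results of a few genes that these rules would name are not reported here, in text or plots, but the genes stay in all counts and shares.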

Additional observations from a re-analysis of the deposited data

How the results depend on the processing

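No paired analysis was possible because the series has 1 group. The count of 29 genes covered in both replicates was 24 with at least 5 cDNAs in each, where 16.5% of all protein-coding genes passed. With sites of at least 2 cDNAs it was 27 (16.7% of all), at unique positions 29 (22.3%) and with 1 transcript per gene 28 (21.1%). Where the following 35 nt was unique with up to 2 mismatches it was 20, and no share of all genes was computed. In replicate 2 alone it was 31 (23.2% of all). It was 45 in replicate 1 alone (without replicate 2), where 32.9% of all protein-coding genes passed. The CDS share of 56.8% became 49.3% with the 3′UTR placed before the CDS, 50.3% with the transcript of the longest CDS, 64.6% at sites with at least 2 cDNAs, 43.5% without Rps15a and 37.4% where the following 35 nt was unique with up to 2 mismatches. The last 2 were chosen after seeing the data. The 3′UTR share of 28.7% became 36.2%, 32.4%, 25.1%, 38.0% and 38.2% in the same order. The alternatives themselves fix which sites or genes are counted, and beyond that the cause was not tested. Over single replicates, the CDS share was 52.9% to 60.7%, the 3′UTR share 28.0% to 29.4%, the 5′UTR share 4.42% to 8.21%, the share in the first 20 nt 10.7% to 29.7% and the U content 33.5% to 40.02%. The share within the first 50 nt of a transcript was 34.9%, against 20.2% for the first 20 nt. Of the exonic positions of these genes, 70.6% were unique over 35 nt, 64.3% over 25 nt and 62.7% with up to 2 mismatches. The 5′UTR share and the U content moved by less than the SD of the replicates under the other alternatives. Replicate 2, with 28 cDNAs in these 5′UTRs, limits what can be said there.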
